A study of Mus musculus with 14 samples.

Results

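The genes that encode the secreted Wnt ligands, the Frizzled receptors and the R-spondins were examined in immortalised mouse embryo fibroblasts (iMEFs). The set was defined by gene name and holds 33 of the 21938 protein-coding genes in the annotation, namely 19 Wnt genes, 10 Fzd genes and 4 Rspo genes. For each gene, peaks of trimethylated lysine 4 of histone H3 (H3K4me3) were taken where any base lay within 1 kb of one of its transcription start sites (TSSs). Putative enhancers were taken where any base lay in the gene or within 50 kb of it. This gave 32 peaks of the 25357 on chromosomes and 68 enhancers of 32965.

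The series comprises ChIP-seq for H3K4me3 in 12 libraries, with 2 replicates each of untreated cells and of cells exposed to dTAG for 30 min, 2 h, 4 h, 8 h or 16 h. Another 2 libraries are inputs, 1 of untreated cells and 1 of the 16 h treatment. In all groups the cells are Ash2l fl/fl iMEFs with Cre-ER, in which exon 4 of the endogenous alleles was deleted and a lentiviral construct supplies human ASH2L fused to FKBP12F36V, the part that dTAG recruits to a ubiquitin ligase. Per the study, the cells are those of 1 clone, NG3, and the replicates are biological. The H3K4me3 positions are a union over all these libraries and the enhancers come from control cells. Neither list has a value per library, so no difference below carries a replicate error, and time points were not compared. The study planned for a minimum of raw reads per ChIP sample, but the depth reached by each library is unknown here. Genes are not replicates, and all shares and medians below describe the lists without a test.

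Wnt proteins are lipid-modified, secreted signals that bind the cysteine-rich domain of Frizzled receptors. In the canonical branch, Frizzled acts with Lrp5 or Lrp6 to stabilise beta-catenin, which then works with TCF and LEF factors at target genes. R-spondins bind Lgr receptors and remove the ligases Znrf3 and Rnf43, which otherwise clear Frizzled from the cell surface. In connective tissue, Wnt5a is best known for signalling without beta-catenin. H3K4me3 is found at the start sites of active genes and at many CpG islands, stretches of DNA that have kept their CpG dinucleotides. It is deposited by KMT2 complexes, of which ASH2L is a core subunit.

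The identity of the cells was checked with defining markers. A peak was listed at 10 of 10 fibroblast genes, among them Col1a1, Pdgfra and Prrx1, against 59.1% of all protein-coding genes. No peak was listed at the 4 blood genes or the 4 pluripotency genes, including Ptprc, Pou5f1 and Nanog. Of these, 0 blood genes and 1 pluripotency gene have a CpG-rich start, as defined below, against 53.2% of all genes. Of the other lists, 2 of 4 epithelial genes (Epcam and Cdh1), 2 of 4 endothelial genes (Kdr and Tek) and 3 of 4 neuronal genes (Syt1, Tubb3 and Stmn2) had a peak. A listed peak alone thus did not tell cell types apart, and the part of the marker genes in the results below was not tested.

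To show the DNA at the extremes of the set, the 150 bases before the most upstream TSS are given for the ligand and the receptor with the widest peak and for a gene of each class without a peak. Each of the latter has the lowest CpG ratio among the genes of its class without a peak, leaving out Wnt8a. All are written 5′ to 3′ on the strand of the gene, from build GRCm38.p6 (mm10), and capitals mark CpGs. The stretches of Wnt5a (chr14:28504600-28504749) and Fzd7 (chr1:59482274-59482423) lie within peaks. Those of Wnt8b (chr19:44493322-44493471), Fzd10 (chr5:128600694-128600843) and Rspo4 (chr2:151842777-151842926) do not.
Wnt5a: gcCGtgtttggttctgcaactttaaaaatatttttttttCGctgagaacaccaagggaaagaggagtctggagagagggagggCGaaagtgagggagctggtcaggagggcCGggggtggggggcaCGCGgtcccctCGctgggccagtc
Wnt8b: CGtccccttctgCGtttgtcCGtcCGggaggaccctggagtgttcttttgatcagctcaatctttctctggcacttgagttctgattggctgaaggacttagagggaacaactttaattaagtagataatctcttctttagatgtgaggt
Fzd7: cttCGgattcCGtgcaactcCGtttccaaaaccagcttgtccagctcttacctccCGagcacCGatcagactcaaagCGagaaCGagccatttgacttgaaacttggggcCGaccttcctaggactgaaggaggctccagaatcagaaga
Fzd10: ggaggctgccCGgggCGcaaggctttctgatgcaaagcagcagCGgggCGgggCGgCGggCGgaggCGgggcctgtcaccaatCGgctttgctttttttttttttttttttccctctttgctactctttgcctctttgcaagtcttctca
Rspo4: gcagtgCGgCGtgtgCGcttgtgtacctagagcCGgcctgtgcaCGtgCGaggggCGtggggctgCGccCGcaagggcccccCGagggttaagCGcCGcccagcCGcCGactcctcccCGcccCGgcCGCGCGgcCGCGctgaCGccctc
Among these few stretches, picked by peak width or CpG ratio, the number of CpGs did not separate those with a peak from those without. They do not stand for promoters in general, for which CpG classes are compared below. Wnt5a had 7 CpGs and Fzd7 had 8. Without a peak, Wnt8b had 4, Fzd10 had 9 and Rspo4 had 22, the most of all the stretches shown.

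To ask how many of the genes carried H3K4me3, genes with a peak were counted in each class. A peak was listed at 22 of 33 genes (66.7%), against 59.1% of all protein-coding genes. Frizzled receptors were covered most often, with 8 of 10 genes (80.0%). Among ligands, 12 of 19 genes (63.2%) had a peak, a share close to that of all genes. R-spondins had a peak at 2 of 4 genes (50.0%). The classes differ in CpG content. Among genes with a CpG-rich start, as defined below, 11 of 13 ligands (84.6%) and 8 of 10 receptors had a peak. The ligands without a peak were Wnt1, Wnt3, Wnt3a, Wnt8a, Wnt8b, Wnt9b and Wnt10a. The receptors without one were Fzd6 and Fzd10, and the R-spondins without one were Rspo1 and Rspo4. Every gene with a peak had at least 1 TSS inside it. The nearest peaks beyond the limit of 1 kb lay 1020 bp from the TSS of Wnt1 and 1942 bp from that of Rspo4. For Wnt8b a peak lay 1343 bp from the nearer of its 2 TSSs. This peak is inside the gene (chr19:44493472-44514273), away from the 5′ end whose sequence is shown above.

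Among the ligands, the widths of the peaks spanned a wide range. Wnt5a, known for roles in cell polarity and migration, had the widest peak of the class. It measured 2902 bp (chr14:28504122-28507023), reached from 628 bp before to 2273 bp after the 5′ end, and was wider than the widest peak of 96.4% of genes with a peak. A second Wnt5a peak of 2694 bp (chr14:28509300-28511993) began 4550 bp into the gene and held 4 of its 6 annotated TSSs. These 2 peaks were separated by 2276 bp. Wnt10b, known for its part in bone formation and in the restraint of fat cell differentiation, had 1 peak of 2653 bp (chr15:98776238-98778890) that contained all 5 of its TSSs. Only Wnt5a and Wnt10b among the ligands had a peak of 2000 bp or more.

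The other ligands had narrower peaks. The peak of Wnt9a measured 1793 bp, that of Wnt5b 1392 bp (chr6:119543371-119544762) and the wider of the 2 peaks of Wnt7b 1425 bp, the narrower being 361 bp. Wnt11, which acts in cell movements of the gastrula, had 3 peaks of 730, 1155 and 653 bp. Wnt4, required for kidney tubules, had peaks of 648 and 692 bp on either side of a gap of 93 bp just after its TSS. Wnt6 had a peak of 929 bp, Wnt16 of 780 bp, Wnt2 of 724 bp and Wnt2b of 614 bp (chr3:104961522-104962135). Wnt2 and Wnt2b specify the lung in the embryo. The narrowest was at Wnt7a, which patterns the back of the limb, at 279 bp (chr6:91411301-91411579), from 216 bp before to 62 bp after the 5′ end. Wnt7a was the only gene of the set to lose its call when peaks under 500 bp were left out. At Wnt7b and Wnt16 the listed peaks began after the most upstream TSS, at 546 and 178 bp, and covered downstream TSSs.

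Frizzled receptors, the membrane proteins that receive Wnt ligands, had a widest peak above the median of all genes in 6 of the 8 with a peak. Fzd7 had the widest of the set, 3617 bp (chr1:59482098-59485714), which reached 3290 bp past the 5′ end and contained all of its coding sequence. A further peak of 1047 bp (chr1:59480827-59481873) lay upstream. Fzd2 had the same arrangement, with a peak of 3276 bp (chr11:102604317-102607592) over all coding bases and one of 1340 bp (chr11:102602817-102604156) upstream. Fzd1 had a peak of 2681 bp, Fzd8 one of 2429 bp and Fzd5 peaks of 2155 and 1090 bp. Fzd3, which guides axons, had a peak of 1382 bp. Fzd4, which also receives Norrin in blood vessels of the retina, had peaks of 1235 bp (chr7:89404351-89405585) and 958 bp (chr7:89403275-89404232). Fzd9 had the narrowest widest peak of the class, at 1094 bp. Thus, the widest peaks of the receptors ranged from 1094 to 3617 bp and those of the ligands from 279 to 2902 bp, and the classes overlapped.

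**Figure D1:**
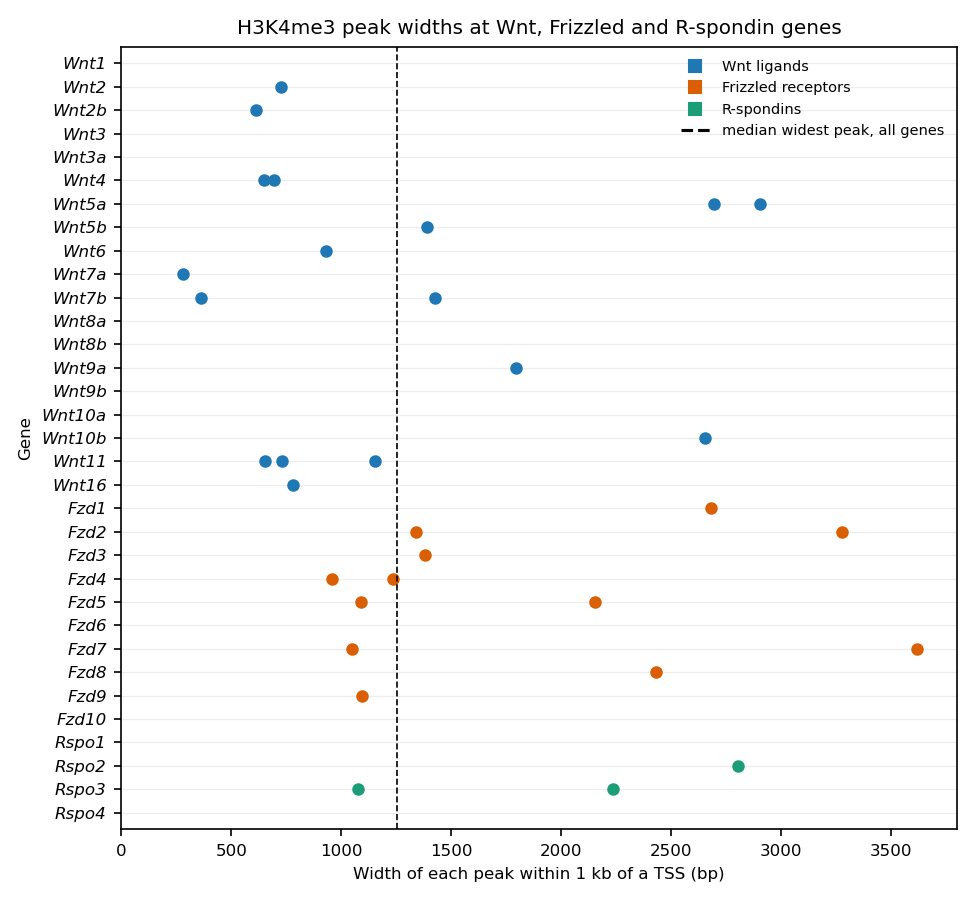
Width in bp of each H3K4me3 peak within 1 kb of a TSS, with 1 row per gene and 1 point per peak; the dashed line is the median widest peak of all protein-coding genes with a peak, 1255 bp. Points of Frizzled receptors reach 3617 bp, those of ligands 2902 bp, and 11 rows have no point.

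In the receptors Fzd2, Fzd4, Fzd5 and Fzd7, which had 2 peaks each, a narrower peak lay before the gene and a wider one over its start. The bases between them numbered 160 for Fzd2, 118 for Fzd4, 255 for Fzd5 and 224 for Fzd7. All of these gaps lay before the 5′ end. The upstream peak of Fzd4 also contained a TSS of Tmem135, so that it cannot be assigned to Fzd4 alone. The wider peak of Fzd4 held its own TSS and lay 129 bp from a TSS of Tmem135. Fzd4 kept this wider peak when peaks at least as near to another coding gene were left out. In Rspo3 the gap of 61 bp lay instead inside the gene, 518 bp after the 5′ end. Other peaks of the set also lay near genes outside the protein-coding annotation. A TSS of such a gene was within 1 kb of the second Wnt5a peak and the Wnt7a peak. The same held for the wider peaks of Wnt7b and Fzd5 and for both Rspo3 peaks. The narrower peak of Fzd5 lay wholly over annotated noncoding exon bases outside Fzd5. These peaks were not assigned to 1 gene.

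**Figure D2:**
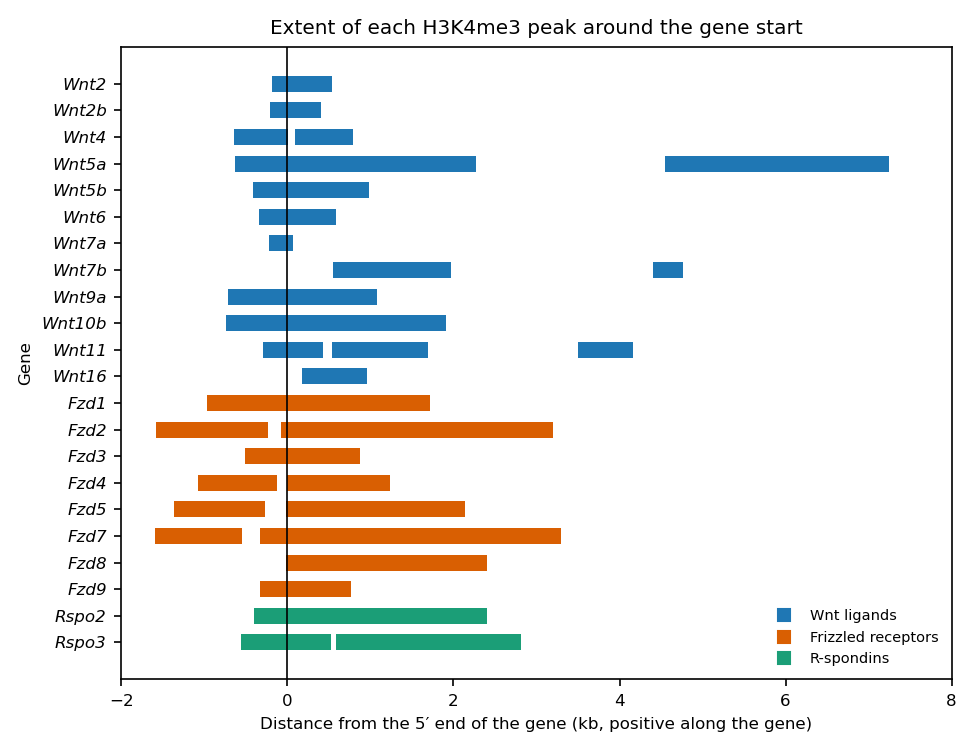
Extent of each listed peak relative to the 5′ end of the gene (vertical line at 0), in kb along the direction of transcription, for the 22 genes with a peak. Fzd2, Fzd4, Fzd5 and Fzd7 show a peak on each side of a gap before the 5′ end, and Wnt5a, Wnt7b and Wnt11 show a separate downstream peak.

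The 2 R-spondins with a peak had wide peaks as well. Rspo2, which acts in limb and lung development, had a peak of 2805 bp (chr15:43168422-43171226) over all 3 of its TSSs. Rspo3, needed for blood vessels of the placenta, had peaks of 2235 bp (chr10:29533053-29535287) and 1077 bp (chr10:29535349-29536425). The narrower one contained 1 of the 2 TSSs.

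To compare ligands with receptors, the widest peak of each gene was used. The median over genes with a peak was 1042 bp for 12 ligands, 2292 bp for 8 receptors and 2520 bp for 2 R-spondins, against 1255 bp for all genes. Peaks of 2000 bp or more were found at 2 of 12 ligands, 5 of 8 receptors and 2 of 2 R-spondins, against 16.0% of all genes with a peak. Having 2 or more peaks was less distinct. It applied to 4 ligands, 4 receptors and 1 R-spondin, together 40.9%, and to 40.3% of all genes with a peak. Merging peaks within 1 kb of each other moved the medians to 1429 bp for ligands and 2555 bp for receptors, and that of receptors remained the higher of the 2.

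The classes differ in gene structure, which bears on what a peak covers. Of the 10 Frizzled genes, 7 have their coding sequence in 1 uninterrupted block, whereas no ligand or R-spondin does. Over all 10 receptors, the median share of coding bases under a peak within 1 kb of a TSS was 44%, with 0% at Fzd3, Fzd6 and Fzd10 and 100% at Fzd2 and Fzd7. In the ligands this share was 0% for 10 of 19 genes, and the maximum was 29.0% at Wnt16. Genes without a peak, 7 ligands and 2 receptors, are at 0% by construction. Of the ligands with a peak, only Wnt2b, Wnt5b and Wnt7a were at 0%. The limit of 1 kb mattered here. With any listed peak counted, 12 of 19 ligands were above 0%, with a median of 7.82% and a maximum of 48.8% at Wnt6. The median of the receptors was then 48.55%. Counted in this way, all CpG-rich genes with a peak had a median of 32.3% with 1 coding block. Those with several blocks had 5.28%. Receptors with a peak had 88% with 1 block and 8.85% with several, and CpG-rich ligands with a peak had 7.82%. The 6 receptors with 1 coding block and a peak had a median widest peak of 2555 bp, and 5 of them reached 2000 bp. The exception was Fzd9. In 668 protein-coding genes with 1 coding block, a CpG-rich start and a peak, the median was 1231.5 bp, and 19.3% reached 2000 bp. Among CpG-rich genes with several coding blocks, 17.9% reached this width. The receptors with a peak and several coding blocks, Fzd3 and Fzd4, had a median of 1308.5 bp. The receptor peaks of 2000 bp or more were thus all at genes with 1 coding block, although genes of this structure did not have wider peaks in general.

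Peaks extended further into the gene than before it, in the set as in most genes compared. Within 2 kb of the 5′ end, more bases downstream than upstream lay under peaks in 11 of 12 ligands, 8 of 8 receptors and 2 of 2 R-spondins. The same held for 84.3% of the 12301 protein-coding genes compared. In the set, only Wnt7a went the other way. The median upstream cover was 965.5 bp in receptors and 318 bp in ligands, and the median downstream cover was 1856.5 and 904 bp.

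To relate the peaks to DNA sequence, each gene was placed in a CpG class from windows of 500 bp within 1 kb of its TSSs. The high class needs a window in which observed CpGs exceed 0.75 of the number expected from base content and a GC content over 55%. The low class has no window where this CpG ratio is over 0.48, and the rest are intermediate. All 10 receptors and all 4 R-spondins were in the high class, as were 13 of 19 ligands. Of these 27 genes, 21 had a peak, whereas 91.9% of all high-class genes did. The 21 were 11 of 13 ligands (84.6%), 8 of 10 receptors (80.0%) and 2 of 4 R-spondins. Within this class the share was thus not higher in receptors than in ligands. In the intermediate class, 1 of 4 ligands had a peak (Wnt16 but not Wnt1, Wnt3 or Wnt10a), against 45.4% of all such genes. Neither of the 2 low-class ligands, Wnt8a and Wnt8b, had a peak, and 3.87% of all low-class genes did. The number of annotated TSSs also differs between genes, and 28.9% of all genes with 1 TSS had a peak. In the set, 8 of 15 genes with 1 TSS had one, of which 6 were receptors and 2 were ligands. The 28.9% covers genes of every CpG class, whereas all receptors are in the high class. The part of CpG content in this difference was not tested.

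**Figure D3:**
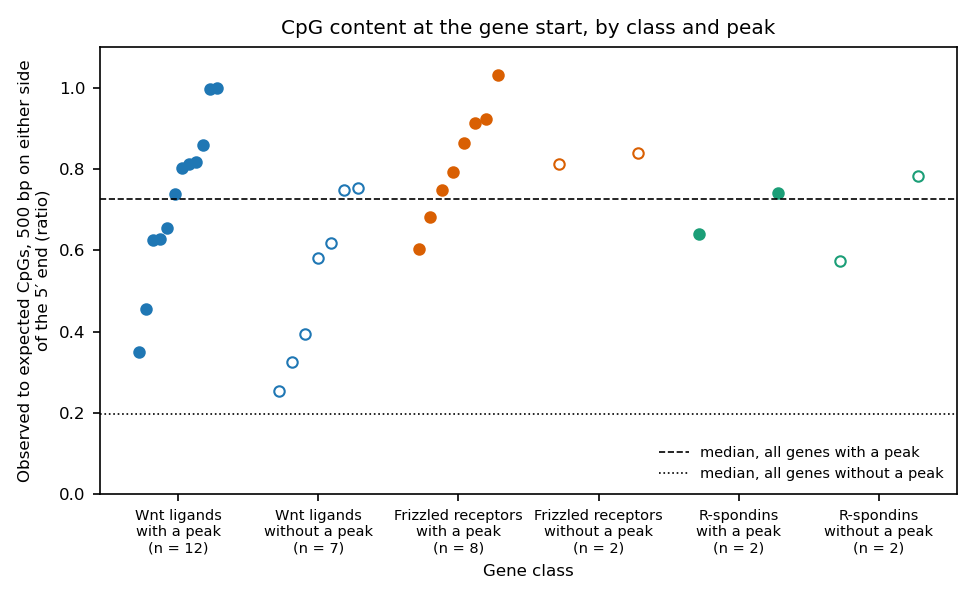
Ratio of observed to expected CpGs in the 500 bp on either side of the 5′ end, 1 point per gene, by class and by whether a peak was listed. Filled points have a peak, open points have none, and the lines are medians of all genes with a peak (0.727) and without one (0.197); the open points of Fzd6, Fzd10, Rspo1, Wnt3a and Wnt9b lie above the upper line.

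Among genes of the high class, 6 had no listed peak. Fzd6, a receptor of planar polarity in skin and hair, had a CpG ratio of 0.840 at its 5′ end, and the nearest peak lay 189295 bp from a TSS (gene at chr15:39006034-39038188). Fzd10 (chr5:128600844-128604093) had a ratio of 0.813 and its nearest peak, of 272 bp, was 119794 bp away. No enhancer lay within 50 kb of either receptor. Rspo1 (chr4:124986430-125009099), a factor in ovary development, had a ratio of 0.783 and no enhancer, and its nearest peak was 22198 bp away. Rspo4 (chr2:151842927-151874668), which acts in nail formation, had a ratio of 0.574 and a peak of 219 bp 1942 bp from its TSS. Wnt9b (chr11:103727364-103749821), an early signal of the kidney duct, had a ratio of 0.753, and its nearest peak was 51584 bp away. Wnt3a (chr11:59248033-59290752), a ligand of the canonical branch, had a ratio of 0.748, and its nearest peak, 15457 bp away, was the one at the start of Wnt9a. A missing entry in the list sets no upper limit on H3K4me3, since no signal or depth is given.

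The call depended on the limits for Wnt1, Wnt3, Wnt7a, Wnt8b and Rspo4. With a window of 3 kb, Wnt1 (peak of 338 bp, chr15:98790877-98791214), Wnt8b (peak of 273 bp, chr19:44511664-44511936) and Rspo4 (peak of 219 bp, chr2:151840767-151840985) counted as having a peak. The 3 peaks are all narrower than 500 bp. With TSSs from RefSeq, chosen as an alternative after seeing the data, Wnt3 gained a peak of 856 bp (chr11:103809775-103810630), which lies inside the gene, 35625 bp from the GENCODE TSS. No receptor changed its call under any of the alternatives.

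Several ligand genes are neighbours, and in 3 of 4 such pairs only 1 gene had a peak within 1 kb of a TSS. Wnt3a and Wnt9a face away from each other, 16.2 kb apart, and only Wnt9a had a peak. Wnt1 and Wnt10b lie 11.7 kb apart on opposite strands, and only Wnt10b had one. Wnt6 and Wnt10a lie 6.19 kb apart on the same strand, and only Wnt6 had one. For Wnt3 and Wnt9b, 24.3 kb apart, neither had a peak. With a window of 3 kb, Wnt1 had a peak as well as Wnt10b, and with RefSeq TSSs Wnt3 had one. The share of such pairs among neighbouring genes in general was not computed. These calls concern start sites only. Further inside the gene, 1 listed peak each lay in Wnt1, Wnt3, Wnt3a and Wnt10a, and 0 in Wnt9b.

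To describe the regulatory surroundings, putative enhancers were counted. These regions had been defined by H3K4me1, H3K27ac and accessible chromatin. At least 1 lay in the gene or within 50 kb for 24 of 33 genes (72.7%), compared with 62.3% of all protein-coding genes. This was the case for 14 of 19 ligands, 7 of 10 receptors and 3 of 4 R-spondins. The median number was 2 per ligand, 1.5 per receptor and 1 per R-spondin, against 1 per gene overall. The order of ligands and receptors depended on the setting, since the medians were 4 and 5 within 100 kb, 0 and 1 with each enhancer given to the nearest coding TSS, and 1 and 1.5 for enhancers of at least 300 bp. Enhancers inside the gene were found at 15.2% of the set and 25% of all genes, the opposite direction to that within 50 kb. Genes with both a peak and an enhancer numbered 19 (57.6%), against 45.7% of all genes. Wnt7a, Wnt11 and Fzd9 had a peak without an enhancer. Wnt1, Wnt3a, Wnt8a, Wnt10a and Rspo4 had an enhancer without a peak. The limit of 50 kb fell between enhancers of Wnt2b at 48.8 and 49.1 kb from the gene and enhancers of Wnt2 at 50.2 kb and Wnt2b at 50.8 kb.

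Rspo2 had 10 enhancers, the most of the set and more than 96.7% of all genes. Of these, 6 lay in its gene body of 150 kb, all in introns, and 4 lay beyond its 3′ end. The nearest to a TSS, of 631 bp (chr15:43132961-43133591), was 37227 bp away. Per 100 kb of gene and flanks, Rspo2 had 4 enhancers, fewer than Wnt2b (5.14), Fzd2 (4.82), Fzd7 (4.78), Fzd4 (4.6) and Wnt16 (4.53), against a median of 0.91 over all genes. Enhancers were listed at 17.3 per Mb on chromosome 15, compared with 10.8 to 16.4 per Mb on the other autosomes, and the part of this in the count of Rspo2 was not tested. Rspo3 had 1 enhancer, of 1451 bp (chr10:29533234-29534684), which lay under its wider peak. Rspo4 had 1, of 52 bp (chr2:151901220-151901271), nearest to the TSS of Angpt4.

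Among ligands, Wnt5b had 7 enhancers and Wnt2b had 6. At Wnt5b, 6 of the 7 lay in the gene and 1 of these overlapped a peak, at chr6:119451945-119452714. The enhancers in the gene were intronic, apart from one that also held coding bases (chr6:119445657-119446568, 25.7% coding). At Wnt2b none lay in the gene. The nearest, of 413 bp (chr3:104967733-104968145), was 5812 bp before a TSS and overlapped a further peak. Wnt16 had 5 enhancers, all upstream, with the nearest 7265 bp from a TSS. Wnt5a, the ligand with the widest peak, had 2, of 429 and 153 bp, both closer to a TSS of Erc2 than to its own. Wnt7b and Wnt10b had 3 each. Wnt1, Wnt3a, Wnt4, Wnt8a and Wnt9a had 2 each and Wnt2, Wnt6 and Wnt10a had 1 each. Wnt3, Wnt7a, Wnt8b, Wnt9b and Wnt11 had 0.

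Of the receptors, Fzd2, Fzd4 and Fzd7 had 5 enhancers each, Fzd1 and Fzd5 had 2 each, and Fzd3 and Fzd8 had 1 each. Fzd6, Fzd9 and Fzd10 had 0. At Fzd7 and Fzd2 the list held a region over the gene itself. That of Fzd7, of 2270 bp (chr1:59482161-59484430), included the TSS. That of Fzd2, of 2048 bp (chr11:102604511-102606558), began 115 bp after it, and 83.5% of its bases were coding. Both lay within the wide H3K4me3 peaks. Regions within 1 kb of a TSS were to be left out of the list, yet by the TSSs used here 8.99% of all listed enhancers lie within that distance. The set of TSSs used by the submitters can differ from this one.

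**Figure D4:**
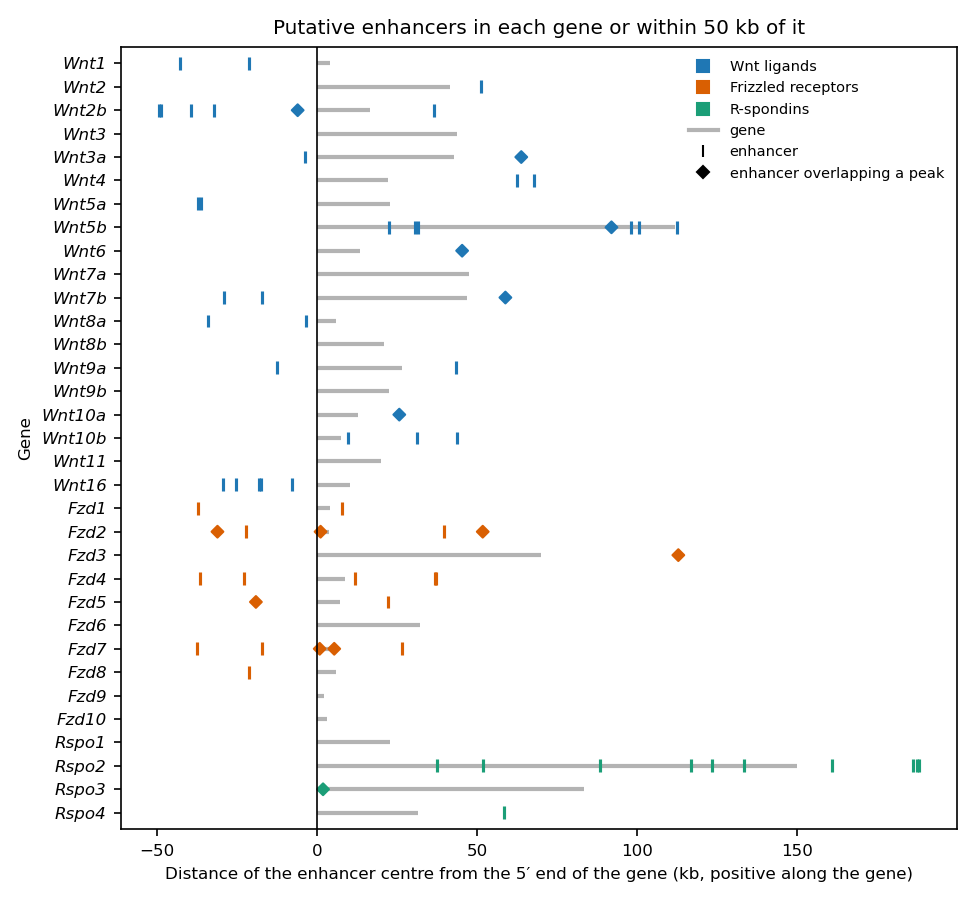
Centre of each putative enhancer relative to the 5′ end of the gene (line at 0), in kb along the direction of transcription; grey bars are genes and diamonds are enhancers that overlap an H3K4me3 peak. The 10 enhancers of Rspo2 all lie downstream of its 5′ end, the 5 of Wnt16 all upstream, and 9 genes have none.

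Proximity did not assign these enhancers to a single gene. Of the 68 enhancers, 45 had a TSS of the counted gene as the nearest coding TSS, and 4 were counted for 2 ligands each. Both enhancers of Wnt1 were also counted for Wnt10b, and the TSS nearest to them was that of Arf3. The enhancers of the set had a median width of 477.5 bp, compared with 405 bp for all enhancers. Any listed peak overlapped 13 of 68, and 7.52% of all enhancers, for which the distance to a coding gene was not limited. Of the 32 peaks counted at the genes, 3 overlapped an enhancer.

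To show what such an element looks like, 1 enhancer of at most 300 bp is given for each class, on the forward strand of GRCm38.p6. Capitals mark matches to TGANTCA (AP-1), GGAATG (TEAD) or CTTTGAA and CTTTGAT (TCF/LEF), on either strand. For the receptors and R-spondins it is the nearest to a TSS among genes with the most enhancers, at Fzd4 (chr7:89367686-89367956, 36399 bp from the TSS, in an intron of Tmem135) and Rspo2 (chr15:43118687-43118936, intronic, 51882 bp from a TSS). Wnt5b had none of this size. The nearest among all ligands except Wnt8a is shown instead, chosen after its values were seen. It lies between Wnt3a and Wnt9a (chr11:59294205-59294483), 3453 bp from the TSS of Wnt3a and 12445 bp from that of Wnt9a.
Wnt3a and Wnt9a: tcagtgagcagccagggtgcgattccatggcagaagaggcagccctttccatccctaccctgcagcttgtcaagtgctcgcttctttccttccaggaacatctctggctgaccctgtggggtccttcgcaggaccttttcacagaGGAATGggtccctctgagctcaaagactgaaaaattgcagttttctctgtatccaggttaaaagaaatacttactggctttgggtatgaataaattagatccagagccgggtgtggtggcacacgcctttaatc
Fzd4: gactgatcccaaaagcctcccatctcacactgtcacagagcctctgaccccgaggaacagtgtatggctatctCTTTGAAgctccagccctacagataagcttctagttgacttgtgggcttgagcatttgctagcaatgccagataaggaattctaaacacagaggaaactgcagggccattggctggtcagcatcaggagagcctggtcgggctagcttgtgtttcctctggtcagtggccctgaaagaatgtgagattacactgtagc
Rspo2: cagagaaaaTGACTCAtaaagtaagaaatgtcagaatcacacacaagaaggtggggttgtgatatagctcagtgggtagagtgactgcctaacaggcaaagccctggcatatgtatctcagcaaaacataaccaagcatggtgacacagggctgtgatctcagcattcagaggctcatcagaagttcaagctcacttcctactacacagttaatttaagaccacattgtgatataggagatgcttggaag
The element between Wnt3a and Wnt9a held 1 TEAD match, that of Fzd4 held 1 TCF/LEF match and that of Rspo2 held 1 AP-1 match.

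Across all enhancers of the set, the AP-1 letters occurred in 21 of 68 (30.9%), against 30.2% of the whole list. TCF/LEF letters occurred in 12 (17.6%), against 16.4%. TEAD letters occurred in 32 (47.1%), against 32.3%, and by class in 14 of 21 at receptors, 15 of 35 at ligands and 3 of 12 at R-spondins. Enhancers at receptors were wider, with a median of 589 bp compared with 478 bp at ligands and 244 bp at R-spondins. Per kb of sequence, TEAD matches numbered 1.16 at receptors, 0.998 at ligands, 0.882 at R-spondins and 0.848 in the whole list. AP-1 matches numbered 0.289 per kb at receptors, 0.726 at ligands, 0.661 at R-spondins and 0.756 in the whole list. For all enhancers of the set the AP-1 value was 0.547. TCF/LEF matches numbered 0.274 per kb in the set and 0.36 in the whole list. Per kb both motifs were thus less frequent in the set, whereas the shares of enhancers with a match were slightly higher. In promoters, from 250 bases before to 50 after the 5′ end, AP-1 letters were in 1 of 33 genes (6.91% of all genes), TCF/LEF letters in 2 (8.37%) and TEAD letters in 0 (13.5%). The median GC content around the 5′ end was 64.4% in the set and 54.7% in all genes. The part of base content in these promoter shares was not tested. A match says only that the letters are present.

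To place the ligands and receptors in their pathway, 49 further genes were examined in lists by role. A peak was listed at 43 of them (87.8%), against 59.1% of all protein-coding genes. These lists were chosen with earlier results of these data known. All genes for Wnt secretion (Wls with a peak of 2570 bp and Porcn with 967 bp), all 6 co-receptors and all 5 R-spondin receptors and their ligases had one. Of the co-receptors, Ptk7 (2475 bp) and Lrp6 (2005 bp) had the widest peaks, and of the R-spondin receptors Lgr4 (2155 bp) and Lgr5 (2101 bp). A peak was also listed at 12 of 12 cytoplasmic genes, with Axin2 (2056 bp), a feedback inhibitor, and the kinase Csnk1a1 (2004 bp) the widest. The same held for 8 of 8 nuclear genes, where Bcl9l (5288 bp), a beta-catenin co-factor, and Tcf7l2 (3906 bp) were the widest. Secreted or surface inhibitors stood at 10 of 16. Dkk3 (2434 bp) and Apcdd1 (1652 bp) had the widest peaks, and Dkk1, Dkk4, Kremen2, Sfrp5, Sost and Sostdc1 had none. Ligands (12 of 19) and extracellular inhibitors were thus closest to the 59.1% of all genes, and the intracellular lists were complete. The lists also differ in CpG class, with 12 of 12 cytoplasmic and 8 of 8 nuclear genes in the high class and 7 of 16 inhibitors. Of the 49 genes, 37 were in the high class and 36 of these had a peak, near the 91.9% of all high-class genes. The complete intracellular lists are thus also near that share.

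**Figure D5:**
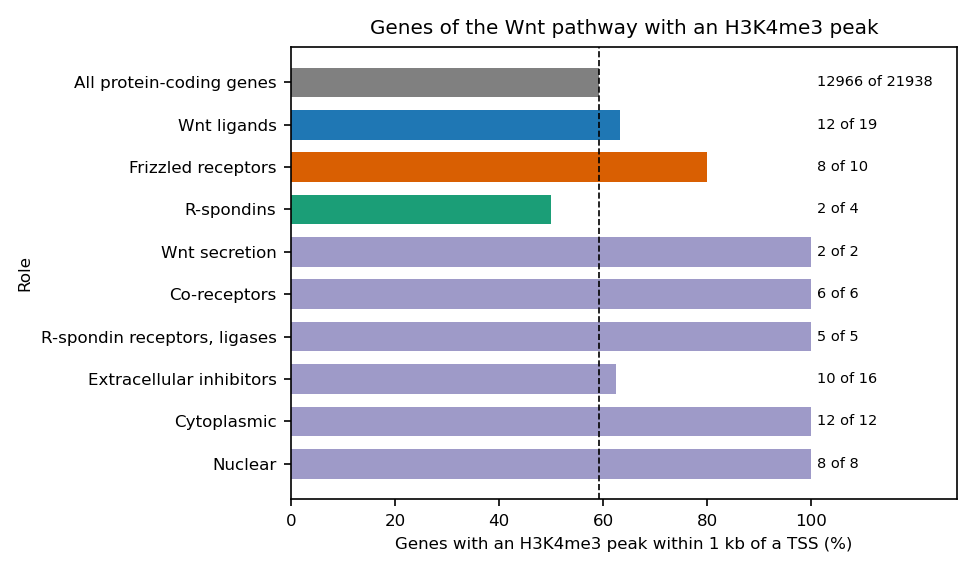
Percentage of genes with an H3K4me3 peak within 1 kb of a TSS, by role in the Wnt pathway, with the number of genes beside each bar; the dashed line is the share of all protein-coding genes, 59.1%. Bars of the co-receptor, cytoplasmic and nuclear lists reach 100%, and those of ligands (63.2%) and extracellular inhibitors (62.5%) lie near the line.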

How the data were processed

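H3K4me3 ChIP-seq was performed in 12 libraries, with 2 inputs. Per the methods of the study and the submitters' processing notes, Trim Galore, BWA and SAMtools were used to trim, align and filter reads on mm10 (GRCm38.p6). Replicate alignments were joined before MACS called narrow peaks. The deposited lists hold genomic positions in 3 columns (chromosome, start, end), a union of H3K4me3 peaks (25431, of which 74 were off the chromosomes analysed) and putative enhancers of control cells. Versions are not given in the sources used here. The labels and the methods name different ChIP kits.

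Peak starts were taken to count from 0 and enhancer starts from 1. Each transcript of a protein-coding gene in GENCODE M21 gave a TSS at its 5′ end, on chromosomes 1 to 19, X and Y (93459 positions). The study named a later release and took distances from Homer. Sequence came from the RefSeq copy of GRCm38.p6. CpG classes were computed from that sequence. Interval functions were tested on simulated data against a direct search, with 0 of 1000 queries differing. Python 3.11.15, NumPy 2.4.6, pandas 2.3.3, pysam 0.24.0 and Matplotlib 3.10.9 were used.

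All 33 genes are named. Promoter sequence of Wnt8a, Fzd8 and the R-spondin with the widest peak is not reported here. Positions are given for the 2 genes with the widest peak and the 2 with the most enhancers in each class (more where tied), for CpG-rich genes without a peak and for genes whose call changed. The genes, lists and rules were chosen with earlier results of these data known. Planned tests on counts per sample, for which positions give no basis, were not run. Alternatives were other TSS sets and windows, wider or merged peaks and other enhancer distances.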

Additional observations from a re-analysis of the deposited data

How the results depend on the processing

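Of 86 values under alternatives, 71 stayed within 1.5 times the value reported, including 53 of 53 for peaks. The number of genes with a peak ranged over 21 (peaks of at least 500 bp), 23 (RefSeq TSSs) and 25 (window of 3 kb), and was 22 under the others that used all chromosomes. The 15 values that moved further were all for enhancers. Counted in the gene only, enhancers were found at 5 genes, 1 ligand and 2 receptors, with a median of 0 per ligand and 0 per receptor. This is 15.2% of the set against 25% of all genes, the reverse of the direction within 50 kb. Under the other settings the set stayed above all genes, least within 10 kb (39.4% against 37.1%). Within 10 kb they were found at 13 genes, 7 ligands and 4 receptors, with medians of 0 and 0. Within 100 kb the medians were 4 per ligand and 5 per receptor. With each enhancer given to the gene of the nearest coding TSS, 8 ligands and 6 receptors had one, with medians of 0 and 1. With enhancers of at least 300 bp, the medians were 1 and 1.5. The order of ligands and receptors thus turned under these 3 settings. These settings count fewer or more regions by construction. No paired analysis was possible because neither list gives values by sample, and for the same reason replicates could not be left out and count models could not be fitted. Without chromosome 15, added after seeing the data, 19 of 28 genes had a peak and 20 had an enhancer, against 58.9% and 61.9% of all genes. Depth limits every statement on a missing peak, and for each library it is unknown beyond the minimum of raw reads that the study planned for.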
